A study of Bos taurus with 24 samples.

Results

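The genes described here encode the proteins of the mitochondrial ribosome that carry the names MRPL (large subunit) or MRPS (small subunit) followed by a number. Membership was set by the symbol: of 11937 genes in the count table, 77 had such a symbol, 49 of them MRPL and 28 MRPS. The 77 genes carry 76 symbols, because MRPL33 names 2 genes. By their place in the mammalian mitoribosome 51 belong to the large subunit and 26 to the small one, since the proteins of MRPS18A and MRPS30 sit in the large subunit despite their names. MRPS36 and MRPL57 were not among the genes listed.

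The mitochondrial ribosome translates the few messenger RNAs of the mitochondrial genome, which code for core subunits of the respiratory chain and ATP synthase. Its ribosomal RNAs come from mitochondrial DNA, whereas all of its proteins are encoded in the nucleus, made in the cytosol and imported. Many of these proteins have a counterpart in the bacterial ribosome, and others are found in mitochondria only. Skeletal muscle cells build up mitochondria as myoblasts stop dividing and fuse, and these ribosomes make part of the proteins that growth of mitochondria requires.

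RNA was sequenced from wild-type (WT) bovine muscle satellite cells of the longissimus dorsi, which are the stem cells of skeletal muscle fibres. Per the labels the culture was a mixture of satellite lines at passage 3, grown alone (monoculture) or apart from passage 10 fibroblasts across a membrane with 0.4 µm pores (coculture). Cells grew in 20% fetal bovine serum (the proliferation samples) and were then moved to 10% horse serum to start differentiation, with samples at 24 h and 72 h. Each of the 6 groups had 4 libraries, and nothing in the labels says that these came from separate cultures, so the p-values rest on the spread among these libraries, part or all of which may be technical.

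Library totals ran from 11541988 to 34957625 counts, and every one of the 77 genes had at least 7 counts in every library. Every gene in the table had at least 6 counts in all libraries used, and 893 genes carry no symbol. PAX7, MYF5, MYOD1 and MYOG, which define satellite cells and myoblasts, were not among the symbols listed, and 4 of 12 myogenic markers were (DES, ITGA7, SDC4 and NCAM1). Of the fibroblast markers 5 of 7 were listed (PDGFRA, DCN, LUM, THY1 and COL1A1), with a summed level of 18298 to 20695 CPM (counts scaled to a common library total) in monoculture in proliferation and 61558 to 64871 CPM at 72 h, against 26108 to 26940 and 53617 to 56787 CPM in coculture. Most of this sum was COL1A1, with means of 17862 and 61551 CPM in monoculture and 25265 and 53140 CPM in coculture. THY1 moved with the sum between cultures. PDGFRA, DCN and LUM went against it, with lower means in coculture in proliferation and higher ones at 72 h (LUM 999 and 859 CPM in monoculture, 736 and 995 CPM in coculture). The summed myogenic level was 155 to 164 and 409 to 441 CPM in monoculture, and 205 to 223 and 241 to 256 CPM in coculture, at the same times. In proliferation DES had means of 72.1 CPM in monoculture and 125 CPM in coculture. SDC4 and NCAM1 moved with the sum there, and ITGA7 went against it (35.1 and 31.2 CPM). At 72 h ITGA7 (155 and 38.5 CPM), DES (148 and 86.1 CPM) and NCAM1 (46.6 and 41.8 CPM) were lower in coculture. SDC4 was higher in it (74.6 and 83.2 CPM). Smooth muscle and pericyte markers (5 of 6 listed, RGS5 not) summed to 12239 to 12323 CPM in monoculture and 14560 to 15992 CPM in coculture in proliferation, and to 10218 to 12272 and 6090 to 7149 CPM at 72 h. Most of this sum was ACTA2 (means of 11368 and 14000 CPM in proliferation). CSPG4 and CNN1 moved with it between cultures in proliferation, and MYH11 and MCAM were lower in coculture. Of endothelial markers 2 of 6, of leukocyte markers 1 of 6 and of adipocyte markers 2 of 5 were listed, with sums of at most 47.9 CPM in any library. The part of a shifting mix of cells in the results below was not tested, and in bulk RNA fewer cells of a type and less RNA per cell cannot be told apart.

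Levels are given as CPM, the usual depth-scaled count, after scaling by trimmed mean of M values (TMM), and differences as log2 fold changes with the standard error (SE). A gene was called when its p-value from edgeR's quasi-likelihood test, adjusted by the Benjamini-Hochberg method over all 11937 genes, was under 0.05. The gene levels depend on transcript length, so levels of different genes are not compared. Of the 77 genes 72 (93.5%) were called in at least 1 of the 10 comparisons, against 94.8% of all genes, and the exceptions were MRPL18, MRPL36, MRPS9, MRPS31 and the MRPL33 gene on chromosome 11. The changes were small. The range between a gene's highest and lowest group mean had a median of 0.41 on the log2 scale, from 0.15 for MRPL18 to 0.85 for MRPL27.

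As a group the genes stood highest in proliferating cells grown with fibroblasts. Their summed level was 1580 ± 6.36 CPM (SD, n = 4) in proliferating monoculture, 1426 ± 56.1 CPM at 24 h and 1523 ± 56.7 CPM at 72 h. In coculture it was 1711 ± 56.9 CPM in proliferation, 1483 ± 24.0 CPM at 24 h and 1477 ± 15.9 CPM at 72 h. The highest group mean fell in coculture proliferation for 41 of the 77 genes and in monoculture proliferation for 25, whereas over all genes these groups held the highest mean for 1745 and 3418 of 11937. The lowest mean was in monoculture at 24 h for 23 genes and in coculture at 72 h for 20. As a share of all counts the 77 genes took 0.177% ± 0.000859 in monoculture and 0.182% ± 0.00572 in coculture in proliferation, and between 0.136% and 0.145% on average in the later groups.

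**Figure D1:**
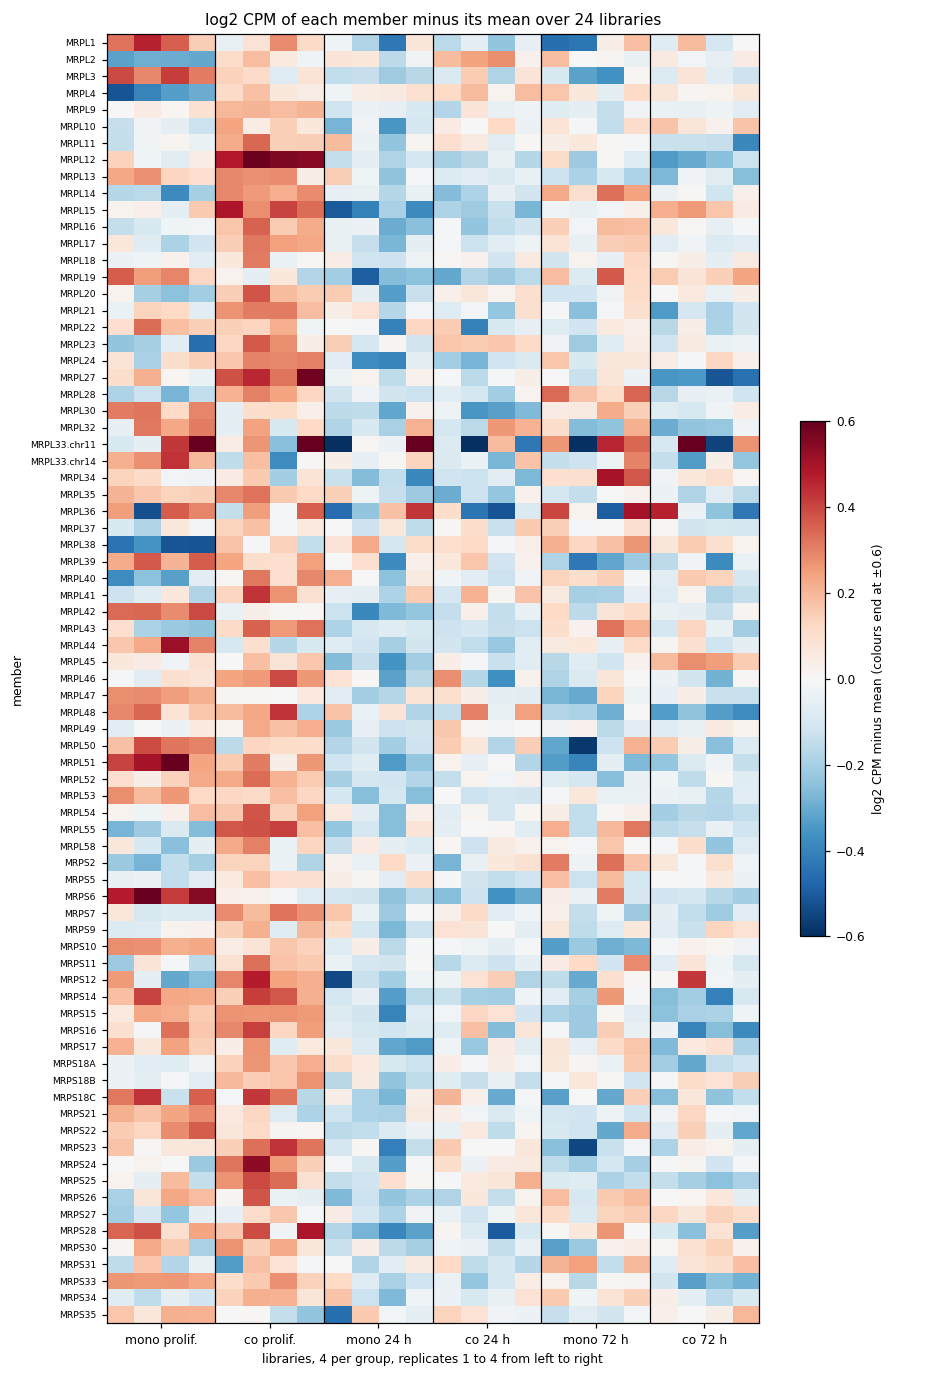
Each horizontal band is 1 gene and each column 1 library, with 4 libraries per group; colour gives log2 CPM minus the gene's mean over the 24 libraries, red above and blue below. Most bands are red in coculture proliferation, where 41 of the 77 genes have their highest group mean, and the bands of MRPL33 on chromosome 11 and MRPL36 vary from library to library.

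The first comparison asks how fibroblasts across the membrane changed dividing satellite cells. In coculture 38 of the 77 genes were higher and 12 were lower than in monoculture, with a median log2 fold change of 0.15. Over all genes tested 30.3% were called higher and 28.7% lower (59.0% in either direction), and the median was 0.00. The share of the 77 genes called higher was thus 49.4% and the share called lower 15.6%. In 31 genes all 4 coculture libraries lay above all 4 monoculture libraries and in 13 all lay below, where 27.1% and 25.9% of all genes did so. With library sizes alone in place of TMM the counts were 26 higher and 16 lower, and the share of all called genes that were higher went from 51.3% to 39.5%.

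Rises were seen at the stalk of the large subunit, the arm that recruits translation factors. MRPL12, the stalk protein that is also known as a partner of the mitochondrial RNA polymerase, lies on chromosome 19 (51118070 to 51122495, in the coordinates of the deposited tables; which genome build they follow is not stated in the labels or files). Its level was 27.9, 24.9, 24.2 and 26.1 CPM in the monoculture libraries and 35.4, 38.1, 37.5 and 37.0 CPM in the coculture libraries. Every coculture library stood above every monoculture library. The log2 fold change was 0.52 ± 0.06 (SE, edgeR's quasi-likelihood test, Benjamini-Hochberg adjusted p = 1.73e-08). MRPL11, at the base of the stalk, rose by 0.27 ± 0.07 and MRPL10, which holds MRPL12 to the ribosome, by 0.20 ± 0.07 on the log2 scale. The 3 genes assigned here to the stalk and its base were thus called higher, and other proteins that lie near this site were not counted with them.

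The central protuberance, where the large subunit meets the head of the small one, had 5 of its 8 listed genes called higher. MRPL55 (chromosome 7, 2993252 to 2997182) had the largest rise among the 77 genes. It was at 15.2, 15.9, 17.4 and 15.4 CPM in monoculture and 23.9, 24.1, 24.6 and 20.9 CPM in coculture. No library of one culture reached the range of the other, and the log2 fold change was 0.55 ± 0.08 (edgeR's quasi-likelihood test, adjusted p = 7.35e-07). Its gene overlaps GUK1, a guanylate kinase gene, which had a log2 fold change of 0.36 ± 0.05, and reads that fall in both genes cannot be told apart without a stated strand. MRPL38, a protein found in mitochondrial ribosomes only, had 14.8, 15.8, 14.1 and 14.1 CPM in monoculture and 22.7, 20.0, 22.2 and 18.2 CPM in coculture. The groups again did not overlap, with a log2 fold change of 0.49 ± 0.07. MRPL27, whose protein lies close to the peptidyl transferase centre, rose by 0.36 ± 0.06 and MRPL40 by 0.44 ± 0.08. Both overlap genes that were also called higher: XYLT2 (0.33 ± 0.06) beside MRPL27, and HIRA (0.24 ± 0.05) and C17H22orf39 (0.39 ± 0.11) beside MRPL40.

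Other large rises were in core proteins that bacteria share. MRPL4, which lines the exit tunnel, was at 26.1, 28.2, 29.7 and 30.4 CPM in monoculture and 40.5, 42.1, 38.9 and 38.5 CPM in coculture, with no overlap and a log2 fold change of 0.49 ± 0.05. MRPL14, at the face that meets the small subunit, was at 21.3, 21.4, 18.4 and 20.9 CPM in monoculture and 29.2, 28.6, 27.9 and 29.1 CPM in coculture. That is a log2 fold change of 0.49 ± 0.06, and the coculture libraries were again all higher. MRPL23, at the mouth of the tunnel, rose by 0.45 ± 0.08, with no overlap between 16.3 to 21.4 CPM and 22.9 to 28.8 CPM.

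In the small subunit 11 of 26 genes were called higher and 4 lower. MRPS12, a protein of the decoding centre, had a log2 fold change of 0.41 ± 0.12 (edgeR's quasi-likelihood test, adjusted p = 0.00511), although 1 monoculture library at 10.1 CPM lay within the coculture range of 9.78 to 11.7 CPM. MRPS7, which helps to form the head of the subunit, rose by 0.31 ± 0.07 with no overlap, and MRPS34, a mitochondrion-specific protein, by 0.26 ± 0.07. MRPS12 overlaps SARS2, which rose by 0.52 ± 0.06, and MRPS7 overlaps MIF4GD (0.36 ± 0.08) and GGA3 (0.21 ± 0.06). MRPS34 overlaps EME2 (0.325 ± 0.123), which was also called higher. The limit on shared reads holds for these genes and for MRPS22, MRPS18B and MRPS18C, named next. Their partners are COPB2 (-0.19 ± 0.04), ATAT1 (0.05 ± 0.14) and ABRAXAS1 (-0.38 ± 0.07). MRPS22, another mitochondrion-specific protein, was not called, with a log2 fold change of -0.18 ± 0.09. MRPS18A, MRPS18B and MRPS18C descend from the same bacterial protein and take different places in the mitoribosome. MRPS18A (0.25 ± 0.06) and MRPS18B (0.24 ± 0.06) were called higher, and MRPS18C had -0.07 ± 0.14 with overlapping libraries. MRPL58, a large subunit protein that acts as a peptidyl-tRNA hydrolase, was called higher at 0.26 ± 0.07, also with overlapping libraries.

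The 12 genes called lower in proliferating coculture were led by MRPS6, a small subunit protein (chromosome 1, 1390132 to 1467626). It was at 64.0, 70.9, 61.6 and 67.5 CPM in monoculture and 47.0, 47.0, 45.9 and 43.6 CPM in coculture. The groups lay far apart, with a log2 fold change of -0.52 ± 0.06 (edgeR's quasi-likelihood test, adjusted p = 3.23e-08). MRPL42, a mitochondrion-specific protein, was at 13, 13.1, 12.6 and 13.6 CPM against 10.0, 10.6, 10.4 and 10.4 CPM. MRPL3, one of the proteins at the core of the large subunit, was at 30.2, 28.1, 30.7 and 28.4 CPM against 25.3, 24.9, 21.8 and 24.3 CPM. For both genes every coculture library was below every monoculture library, with log2 fold changes of -0.34 ± 0.07 and -0.28 ± 0.07. MRPL44, a protein of the tunnel exit, fell by 0.35 ± 0.07, MRPL19 by 0.30 ± 0.08 and the MRPL33 gene on chromosome 14 by 0.31 ± 0.10 on the log2 scale, all without overlap. Leaving out any 1 library gave 44 to 52 calls in all, and the 12 genes named for size kept their calls under every alternative tried.

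**Figure D2:**
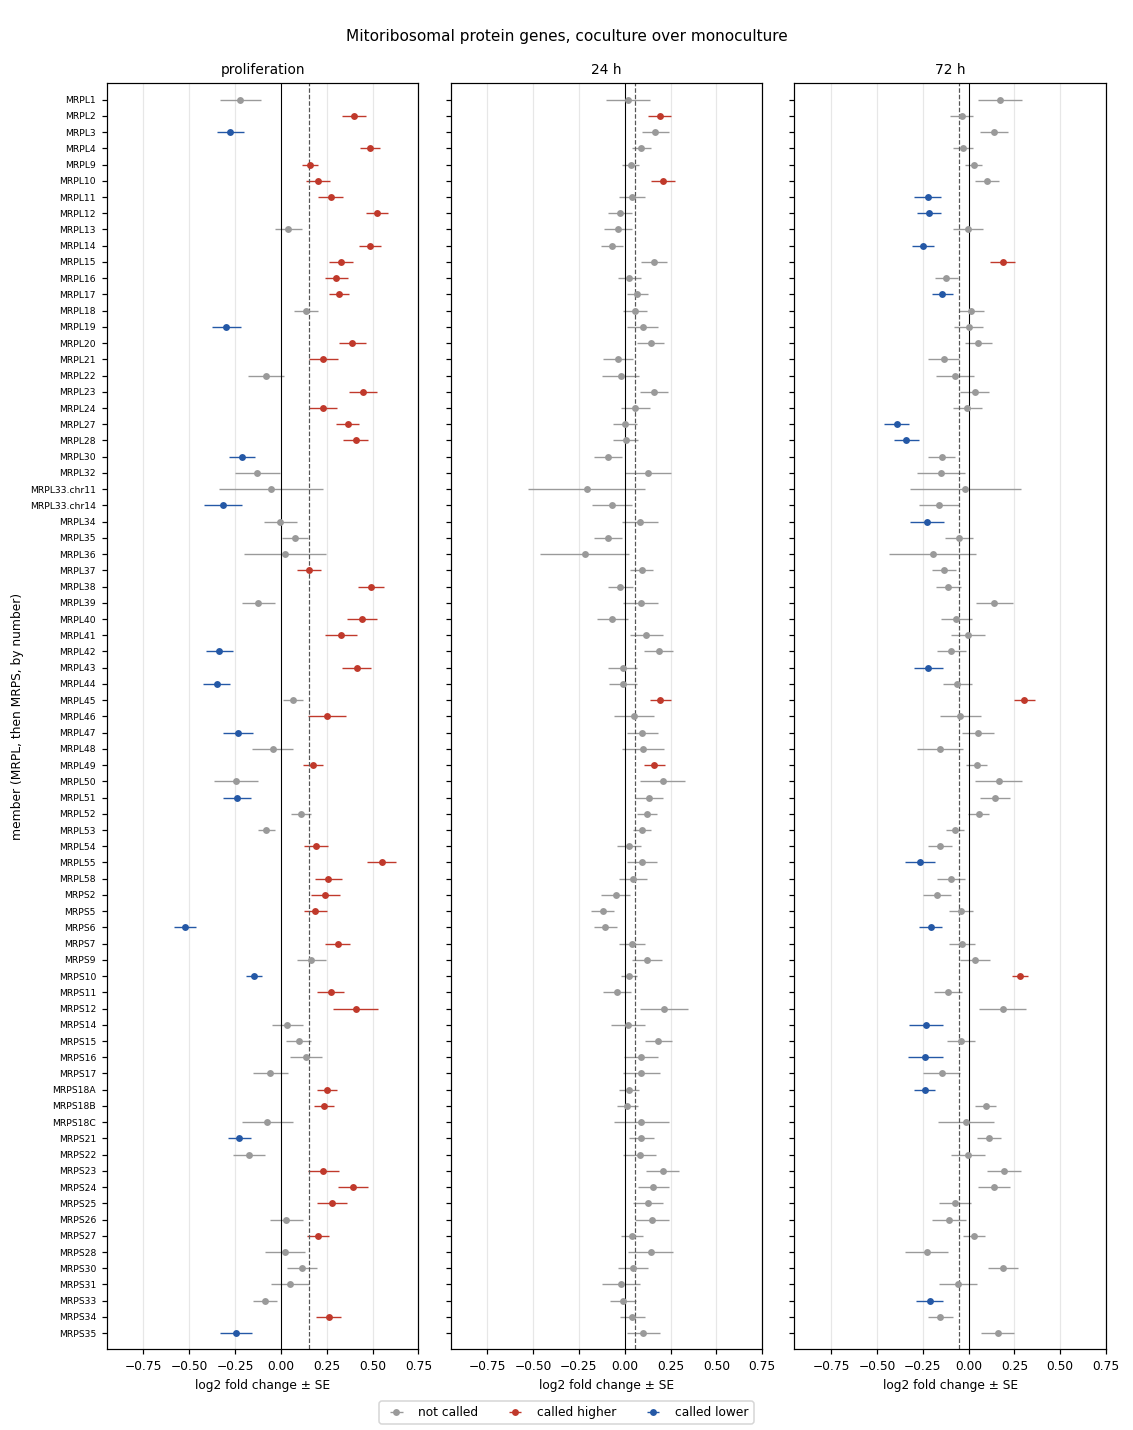
For each of the 77 genes, the log2 fold change between coculture and monoculture with its SE, in proliferation, at 24 h and at 72 h (edgeR's quasi-likelihood fit, 4 libraries per group); red points were called higher, blue points lower, grey points not called, and the dashed line is the median of the 77 genes. Red points prevail in proliferation (38 of 77), few points are coloured at 24 h (4), and blue ones outnumber red ones at 72 h (14 against 3).

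At 24 h after the change of serum few of these genes were called. Of the 77, 4 were called higher and 0 lower by edgeR's quasi-likelihood test, at an unadjusted p under 0.05 11 were higher and 0 lower, and DESeq2 called 3 higher and 0 lower. Over all genes 11.5% were called higher and 12.2% lower. The median log2 fold change of the 77 genes was 0.06, and 57 of them were positive. The 4 genes are all in the large subunit.

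MRPL45, which ties the ribosome to the inner membrane at the tunnel exit, was at 26.8, 29.1, 25.1 and 27.7 CPM in monoculture and 33.0, 31.8, 29.3 and 30.7 CPM in coculture. All coculture libraries were above all monoculture libraries, with a log2 fold change of 0.19 ± 0.06 (edgeR's quasi-likelihood test, adjusted p = 0.0106). MRPL10 (0.21 ± 0.07), MRPL2 of the core (0.19 ± 0.06) and the mitochondrion-specific MRPL49 (0.16 ± 0.06) were the others, and libraries of the 2 cultures overlapped for MRPL10 and MRPL2. MRPL12, which led the stalk in proliferation, had a log2 fold change of -0.03 ± 0.06 at this time, and MRPL3 one of 0.17 ± 0.07 that was not called. The other genes named in proliferation for their roles, MRPL11, MRPL58, MRPS7, MRPS12, MRPS22, MRPS34 and the 3 MRPS18 genes, had 0.01 to 0.21 and were not called. MRPL49 overlaps SYVN1, which had a log2 fold change of -0.18 ± 0.04, and FAU, a cytosolic ribosomal protein gene, which had 0.12 ± 0.05 and was not called. These calls rested on single libraries: 1 call was left without monoculture 24 h replicate 3, and 2 without monoculture 24 h replicate 4, coculture 24 h replicate 1 or coculture 24 h replicate 2. With coculture 24 h replicates 1 and 2 alone, whose library names carry the same L6 tag as the monoculture libraries, 1 gene was called.

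At 72 h the balance was on the other side, with 3 genes called higher and 14 lower in coculture and a median log2 fold change of -0.05. Over all genes 25.1% were called higher and 25.4% lower, against 3.9% and 18.2% of the 77. This balance depended on the scaling: with library sizes alone 20 of the 77 genes were called higher and 2 lower, the median was 0.08, and the median of all genes moved from 0.00 to 0.13, so that the 77 genes stayed below it. The share of all called genes that were higher was 49.7% with TMM and 75.3% with library sizes alone.

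MRPL27 had the largest fall. It was at 24.5, 22.2, 25.7 and 23.8 CPM in monoculture and 19.1, 19.2, 17.1 and 17.9 CPM in coculture. The coculture libraries were all lower, with a log2 fold change of -0.39 ± 0.07 (edgeR's quasi-likelihood test, adjusted p = 2.12e-05). MRPL28, a core protein of the large subunit, was at 19.0, 16.9, 16.2 and 19.1 CPM in monoculture and 13.3, 14.5, 14.6 and 13.8 CPM in coculture, again without overlap and with a log2 fold change of -0.34 ± 0.07. MRPL27 and MRPL28 kept their calls under every alternative tried, library sizes alone included. MRPL55 (-0.26 ± 0.08), MRPL14 (-0.25 ± 0.06), MRPS18A (-0.24 ± 0.06) and MRPS16 (-0.24 ± 0.10) were also called lower, and each of these 4 calls was lost with library sizes alone. At the stalk MRPL12 (-0.21 ± 0.06) and MRPL11 (-0.22 ± 0.07) were lower, calls that were also lost with library sizes alone, and MRPL10 had 0.10 ± 0.07. The changes of MRPS34 (-0.15 ± 0.07), MRPL3 (0.14 ± 0.08) and MRPS12 (0.19 ± 0.13) were not called. Across the proliferation and 72 h comparisons, which share no library, 9 of the 77 genes (11.7%) were higher in coculture at the former and lower at the latter, a share close to the 11.4% of all genes. Only MRPL27 and MRPL28 (2.6%, against 3.91% of all genes) did so with library sizes alone. MRPS10 was lower and then higher under both scalings. With TMM 1 of the 77 genes (1.3%) and 9.75% of all genes did so. With library sizes alone 6 of the 77 (7.79%) and 17.9% of all genes did.

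The 3 genes called higher at 72 h were MRPL45, MRPS10 and MRPL15. MRPL45 was at 28.6, 30.5, 29.5 and 32.7 CPM in monoculture and 36.6, 38.9, 38.2 and 35.7 CPM in coculture. MRPS10, a protein of the small subunit's head, was at 38.4, 41.3, 39.4 and 40.0 CPM against 47.9, 49.1, 48.6 and 47.6 CPM. Neither gene had overlapping libraries, and the log2 fold changes were 0.30 ± 0.06 and 0.28 ± 0.04. Both calls stood under every alternative tried, while that of MRPL15 (0.19 ± 0.07), a core protein of the large subunit, did not.

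All 4 coculture 72 h libraries carry the tag L7 in their library names and all 4 monoculture 72 h libraries the tag L6, so that at this time tag and culture cannot be told apart within the comparison. With the tag as a covariate, estimated from the coculture 24 h libraries, which hold both, 2 genes were called higher and 5 lower. Nuclear ribosomal RNA took 2.14% and 1.76% of counts in monoculture 72 h replicates 3 and 4, 2.24% in coculture 72 h replicate 1, and 0.284% to 0.855% in the other libraries of this time. Without these 3 and coculture 24 h replicate 2 the counts were 6 higher and 6 lower. Single libraries also moved the split: it was 5 higher and 8 lower without monoculture 72 h replicate 3, 7 were higher without monoculture 72 h replicate 4, and 9 were lower without coculture 72 h replicate 4. The authors' deposited tables, whose adjusted p-values come from the authors' own model, called 37 of the 77 genes higher and 12 lower in proliferation, 2 and 0 at 24 h, and 2 and 8 at 72 h. Over all genes the deposited tables called 28.8% and 28.3%, 10.4% and 10.8%, and 21.3% and 21.5% higher and lower at those times.

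**Figure D3:**
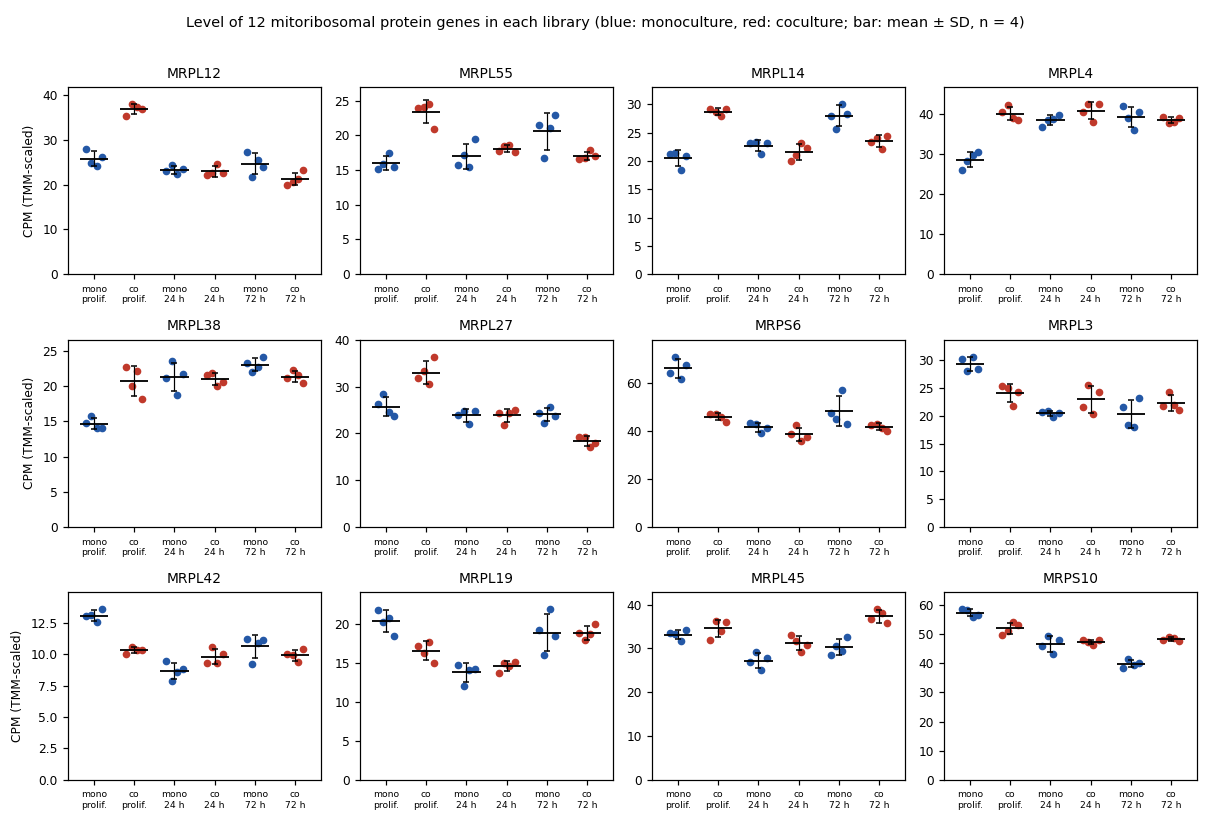
Level in CPM (TMM-scaled, axis from 0) of 12 of the genes in each of the 24 libraries, blue for monoculture and red for coculture, with the mean and SD of 4 libraries as bars. MRPL12 stands out in coculture proliferation (35.4 to 38.1 CPM), MRPS6 in monoculture proliferation (61.6 to 70.9 CPM), and MRPL27 is lowest in coculture at 72 h (17.1 to 19.2 CPM).

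Whether the coculture difference itself changed between times was tested with interaction terms. Between proliferation and 24 h the difference rose for 12 of the 77 genes and fell for 21, where over all genes 24.3% rose and 26.2% fell. MRPL14 (-0.56 ± 0.08), MRPL12 (-0.55 ± 0.09) and MRPL38 (-0.52 ± 0.10) fell most on the log2 scale. MRPL42 (0.52 ± 0.11), MRPL50 (0.45 ± 0.17) and MRPL3 (0.44 ± 0.10) rose most. Those that fell had been higher in proliferating coculture, and MRPL42 and MRPL3 had been lower in it. The interaction term holds the proliferation difference with its sign turned, so genes picked by this term tend to show this, and nothing further is read from it. MRPL50, a mitochondrion-specific protein, had a log2 fold change of -0.24 ± 0.12 in proliferation that was not called. With library sizes alone 13 rose and 10 fell.

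From proliferation to 72 h 12 genes rose in this difference and 28 fell, against 31.3% and 31.0% of all genes (62.3% in either direction). The falls were largest for MRPL55 (-0.81 ± 0.11), MRPL27 (-0.76 ± 0.09) and MRPL28 (-0.75 ± 0.10), and the rises for MRPS10 (0.43 ± 0.06), MRPL3 (0.41 ± 0.10) and MRPL50 (0.41 ± 0.17). With library sizes alone 19 rose and 14 fell. Between 24 h and 72 h 1 gene rose (MRPS10, 0.26 ± 0.06) and 4 fell, MRPL27 (-0.39 ± 0.10), MRPL55 (-0.36 ± 0.11), MRPL28 (-0.34 ± 0.10) and MRPS18A, where 12% and 11.7% of all genes did. At this step 2 rose and 0 fell with library sizes alone. The 5 calls became 12 without monoculture 24 h replicate 1, 10 without monoculture 72 h replicate 2 and 9 without coculture 24 h replicate 3.

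The time course within each culture uses the same libraries as the comparisons above. In monoculture 7 of the 77 genes rose and 37 fell over the first 24 h in horse serum, with a median log2 fold change of -0.14, against 34.3% and 34.2% of all genes. In 4 genes all libraries at 24 h lay above all in proliferation and in 27 all lay below, where 30.0% and 30.1% of all genes did so. Leaving out monoculture 24 h replicate 1 gave 4 rises. MRPS6 fell from 61.6 to 70.9 CPM to 43.0, 42.7, 39.0 and 41.2 CPM, a log2 fold change of -0.67 ± 0.06 (edgeR's quasi-likelihood test, adjusted p = 9.5e-11). MRPL51 (-0.63 ± 0.08), MRPL42 (-0.60 ± 0.08) and MRPL19 (-0.57 ± 0.08) followed, and the libraries of the 2 times did not overlap in any of these 4 genes. MRPL38 went the other way, to 21.2, 23.6, 18.8 and 21.8 CPM, a log2 fold change of 0.54 ± 0.07. MRPL4 also rose, to 36.7, 38.5, 38.7 and 39.7 CPM (0.42 ± 0.05), as did MRPL2 (0.30 ± 0.07) and MRPL40 (0.25 ± 0.08), which lost their calls with library sizes alone.

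MRPL38 and MRPL4 thus reached, in monoculture at 24 h, levels that overlapped those of proliferating coculture, and in coculture they stayed there. Their log2 fold changes over the first 24 h in coculture were 0.03 ± 0.07 and 0.03 ± 0.05. MRPL3 and MRPL42, at 19.8 to 20.9 and 7.9 to 9.42 CPM in monoculture at 24 h, were below their levels in proliferating coculture.

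In coculture the first 24 h brought falls only: 42 of the 77 genes fell and 0 rose by edgeR's quasi-likelihood test, and 0 rose at an unadjusted p under 0.05 or by DESeq2. The median log2 fold change was -0.20, and 21.0% of all genes rose and 22.2% fell (43.2% in either direction). MRPL12 fell most, from 35.4 to 38.1 CPM to 22.1, 22.6, 24.6 and 22.6 CPM. No library overlapped, and the log2 fold change was -0.69 ± 0.06 (adjusted p = 1.5e-10). The MRPL12 levels of monoculture at 24 h, 22.4 to 24.4 CPM, lay within 22.1 to 24.6 CPM. MRPL15 fell by 0.57 ± 0.07, MRPL27 by 0.47 ± 0.06 and MRPS28, a small subunit protein, by 0.44 ± 0.11. With the tag of the library name as a covariate 25 genes fell, and with the 2 coculture 24 h libraries of tag L6 alone 21 fell. MRPS28 was not called in either.

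Of the 42 genes that fell in coculture and the 37 that fell in monoculture over these 24 h, 19 were the same, which is 24.7% of the 77, where 13% of all genes fell in both cultures. The falls in both cultures were each frequent among the 77, and nothing beyond that is read from the shared count. Under scaling by library sizes alone 47 of the 77 (61%) and 28.2% of all genes fell in both. A pair of genes, MRPL14 (0.15 ± 0.06 and -0.41 ± 0.06) and MRPL40 (0.25 ± 0.08 and -0.26 ± 0.08), rose in monoculture and fell in coculture, which is 2.6% of the 77 where 2.98% of all genes did so. Neither was called higher in monoculture with library sizes alone, and 0 of the 77 went in opposite directions. Their interaction terms were -0.56 ± 0.08 and -0.51 ± 0.12.

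From 24 h to 72 h in monoculture 20 genes rose and 2 fell, with a median of 0.06, where 27.3% of all genes rose and 26.6% fell (53.9% in either direction). MRPL34, a core protein of the large subunit, rose from 7.53 to 8.98 CPM to 10.6, 10.5, 13.9 and 12.8 CPM, a log2 fold change of 0.50 ± 0.09. MRPL19 (0.46 ± 0.08), MRPS28 (0.38 ± 0.12) and MRPL15 (0.35 ± 0.07) also rose, all without overlap. MRPS10 fell from 43.1 to 49.5 CPM to 38.4, 41.3, 39.4 and 40.0 CPM (-0.23 ± 0.04), and MRPL39, at the tunnel exit, had -0.23 ± 0.10, a call that was lost without any of 6 single libraries, monoculture 24 h replicates 1, 2 and 4 and monoculture 72 h replicates 2, 3 and 4. With library sizes alone 5 genes rose and 8 fell at this step, and the median of the 77 was -0.07 beside -0.13 for all genes. When the 4 libraries with most nuclear ribosomal RNA were left out, 12 rose and 1 fell.

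In coculture 6 genes rose and 8 fell from 24 h to 72 h, with a median of -0.01, against 24.4% and 23.8% of all genes (48.2% in either direction). MRPL15 rose from 14 to 15.4 CPM to 19.7, 20.2, 19.0 and 17.5 CPM (0.37 ± 0.07), and MRPL19 from 13.7 to 15.1 CPM to 18.8, 17.9, 18.7 and 19.9 CPM (0.37 ± 0.08). Both rose in monoculture at this step too, as given above. MRPL45 (0.26 ± 0.05) and MRPL24, a protein of the tunnel exit (0.22 ± 0.08), were the next. The falls were led by MRPL48 of the central protuberance (-0.43 ± 0.12), MRPL27 (-0.38 ± 0.07), MRPS25 (-0.28 ± 0.08) and MRPS16 (-0.26 ± 0.09). The calls of MRPL24 and MRPS16 were lost with coculture 24 h replicates 3 and 4 alone, the libraries of tag L7.

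**Figure D4:**
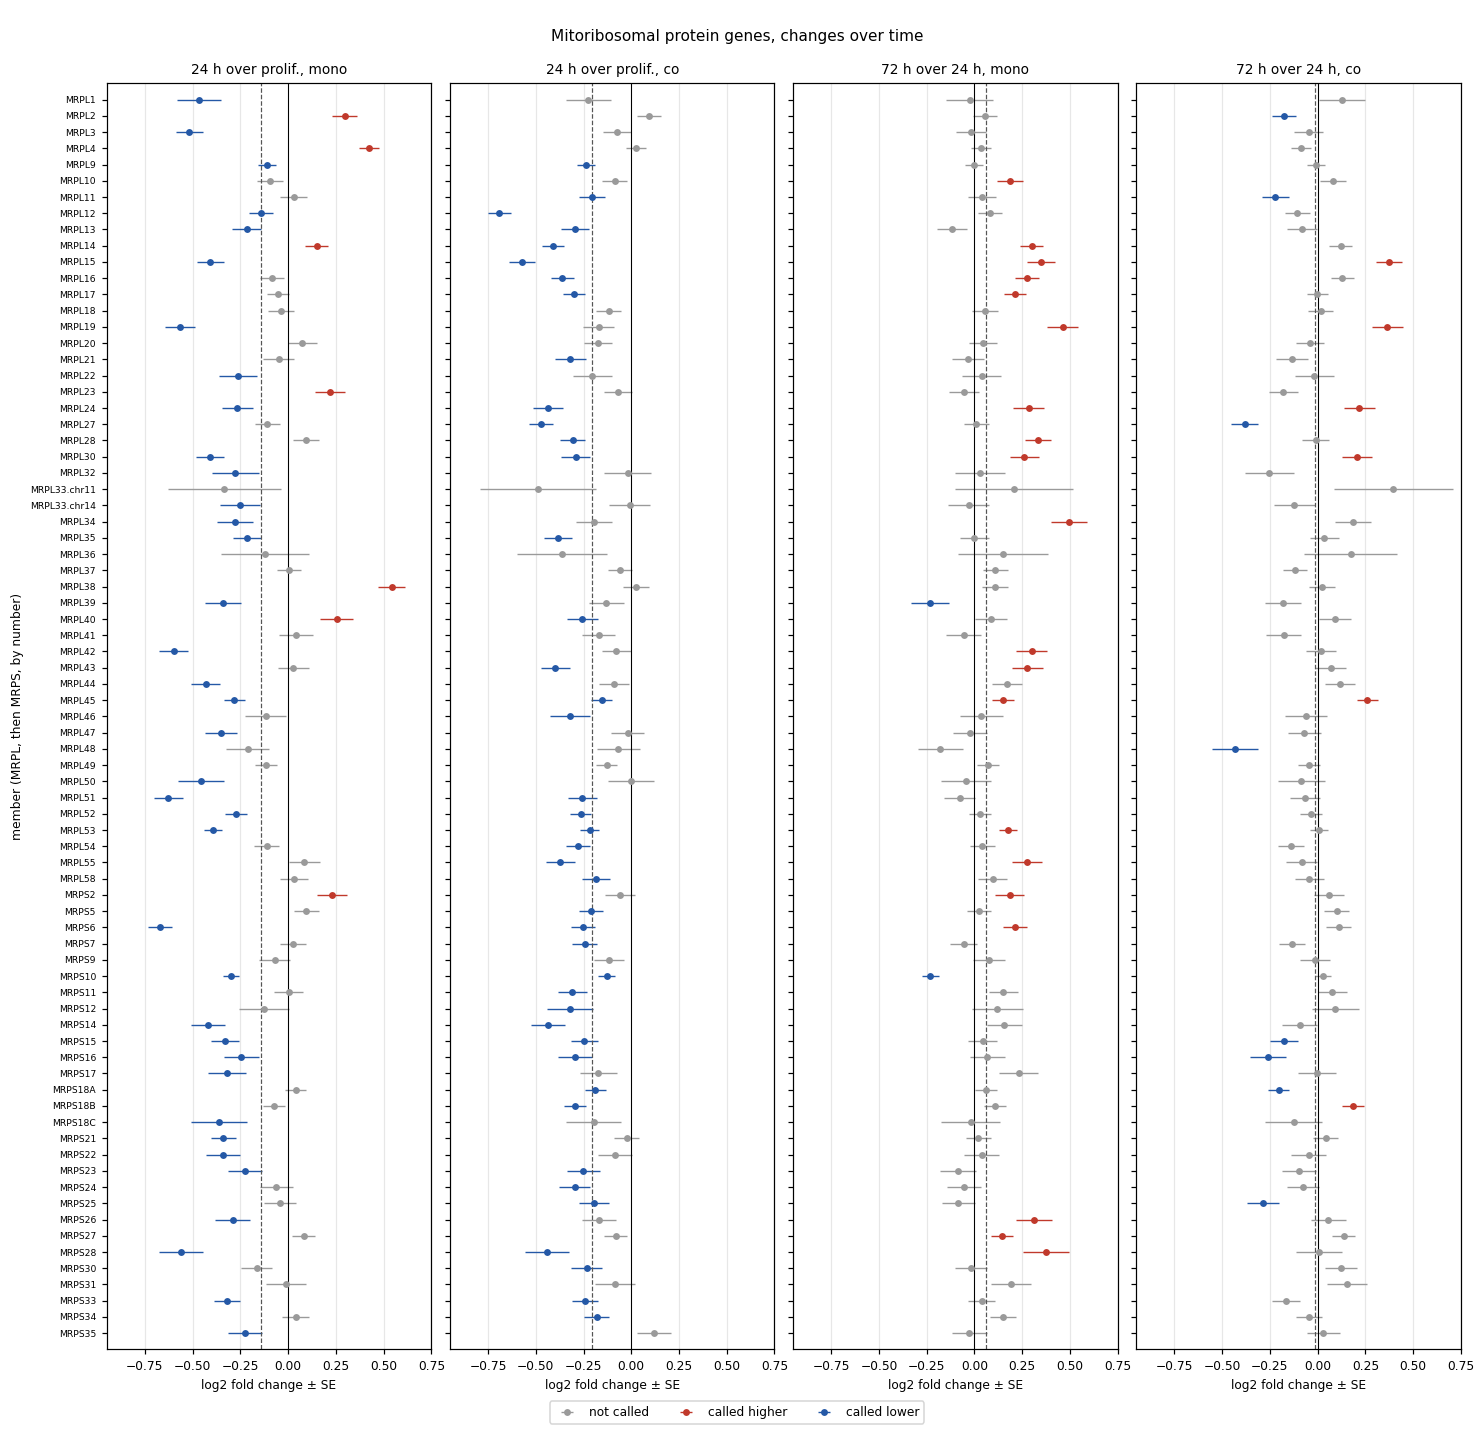
Log2 fold change with its SE for each of the 77 genes from proliferation to 24 h and from 24 h to 72 h, in monoculture and in coculture (4 libraries per group); colours and the dashed median are as in the plot of coculture effects. Blue points prevail over the first 24 h in both cultures (37 and 42 genes), and red ones from 24 h to 72 h in monoculture (20 genes).

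Both subunits and both kinds of ancestry held rises and falls in proliferating coculture. In the large subunit 27 of 51 were called higher and 8 lower (median 0.16), and in the small subunit 11 of 26 and 4 (median 0.12). Among the 47 with a bacterial counterpart 23 were called higher and 8 lower, and among the 30 classed as mitochondrion-specific 15 and 4. That class includes MRPS18A and MRPS18B, both called higher, although they share a bacterial ancestor with MRPS18C, which is classed with the 47. At the tunnel exit, 3 of 8 were called higher and 2 lower. Of the 77 genes 24 overlap another listed gene, and 16 of these were called higher and 0 lower in proliferation by edgeR's quasi-likelihood test, while of the 53 that overlap none 22 were called higher and 12 lower. Over all genes 30.3% were called higher and 28.7% lower, and the counts of this paragraph are to be read beside those shares. Shares were not counted for overlapping genes outside the 77, so nothing is read from the split by overlap. MRPL46, of the central protuberance, and MRPS11, of the small subunit, lie next to each other on chromosome 21 with 109 bases between them, and rose by 0.25 ± 0.10 and 0.27 ± 0.07 in proliferating coculture.

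Among other genes of mitochondrial translation, 4 of the 5 mitoribosomal proteins under other names were called higher in proliferating coculture. These were AURKAIP1 (0.42 ± 0.10), CHCHD1 (0.29 ± 0.08), GADD45GIP1 (0.28 ± 0.11) and DAP3 (0.17 ± 0.05), and 2 of them kept the call with library sizes alone. Of 27 assembly factors and modifying enzymes of mitochondrial ribosomal RNA 9 were called higher, such as MPV17L2 (0.44 ± 0.08), and 6 lower, such as the methyltransferase gene TFB1M (-0.40 ± 0.09). Over all genes 30.3% were called higher and 28.7% lower in this comparison, and the counts of these short lists are to be read beside those shares. Of 17 translation factors 2 were called higher, including the elongation factor TUFM (0.40 ± 0.04). Of the same 17, 5 were called lower, including GFM2 (-0.33 ± 0.07) and LRPPRC (-0.31 ± 0.05), a protein that stabilises mitochondrial messages. Of 8 regulators of mitochondrial biogenesis 5 were called higher, among them ESRRA (0.42 ± 0.05), PPARGC1B (0.39 ± 0.12) and NRF1 (0.33 ± 0.10), and 2 lower, GABPA (-0.41 ± 0.08) and YY1 (-0.27 ± 0.05). At 72 h ESRRA was called lower (-0.33 ± 0.05), and GABPA (0.34 ± 0.09) and NRF1 (0.40 ± 0.10) higher.

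The messages that the mitochondrial ribosome translates were lower in coculture at all 3 times. Of the 13 mitochondrially encoded protein genes 10 were called lower in proliferation and 12 at both 24 h and 72 h, with median log2 fold changes of -0.28, -0.41 and -0.39. Of all genes 28.7%, 12.2% and 25.4% were called lower at these times. At 72 h the tag of the library names and the culture cannot be told apart for these genes either. These 13 genes took 2.05% ± 0.0503 of counts in monoculture and 1.65% ± 0.0412 in coculture in proliferation. Over the first 24 h, when 37 and 42 of the 77 genes fell, 12 of the 13 rose in monoculture (median 0.69) and 13 in coculture (median 0.56). From 24 h to 72 h 11 fell in monoculture and 12 in coculture. Of all genes 34.3% rose in monoculture and 21.0% in coculture over the first 24 h. From 24 h to 72 h 26.6% and 23.8% of all genes fell. With library sizes alone 13, 12 and 11 were called lower in coculture and 11 and 13 rose over the first 24 h, so these directions held under both scalings.

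The nuclear genes of the respiratory chain, whose products join the mitochondrially encoded subunits, and the cytosolic ribosomal proteins are set beside the 77 genes here. In proliferating coculture 38 of 84 nuclear respiratory chain genes were called higher and 11 lower, and 42 of 85 cytosolic ribosomal protein genes higher and 16 lower. Of all genes 30.3% were called higher and 28.7% lower. With library sizes alone the counts were 29 and 17 for the respiratory chain genes, and 24 and 22 for the cytosolic ribosomal protein genes. The counts that follow are with TMM only. Over the first 24 h 21 respiratory chain genes rose and 35 fell in monoculture, and 45 fell in coculture, while 69 and 78 cytosolic ribosomal protein genes fell. Of all genes 34.3% rose and 34.2% fell in monoculture, and 21.0% rose and 22.2% fell in coculture. At 24 h 45 of the 85 cytosolic ribosomal protein genes were called higher in coculture, where 4 of the 77 and 11.5% of all genes were. From 24 h to 72 h in coculture 52 respiratory chain genes fell and 1 rose, where 8 of the 77 fell and 6 rose. Of all genes 23.8% fell and 24.4% rose at this step. Differences between these groups of genes were not tested.

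**Figure D5:**
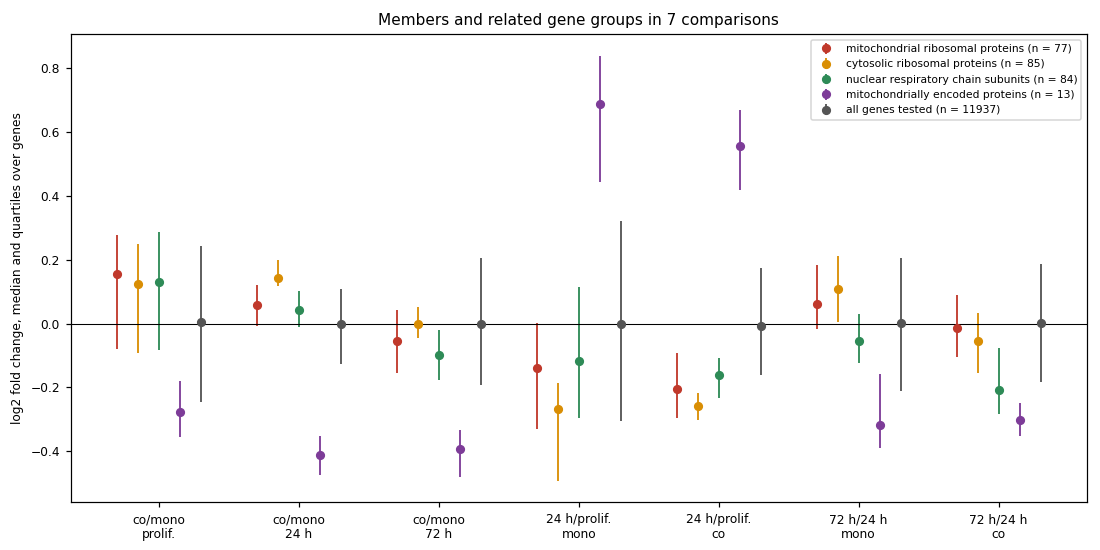
Median log2 fold change (points) with quartiles over genes (bars, not an error of the median) of the 77 mitochondrial ribosomal protein genes and 3 related groups, beside all 11937 genes, in 7 comparisons. The mitochondrially encoded proteins lie below 0 in the 3 coculture comparisons (medians -0.28, -0.41 and -0.39) and above it over the first 24 h (0.69 and 0.56), where the 77 genes have medians of -0.14 and -0.20.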

How the data were processed

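RNA-seq libraries of 6 groups of 4 were used. The deposited counts are whole numbers per gene and library and may be rounded RSEM estimates. The submitters' processing notes name FastQC, STAR, RSEM and DESeq2, with no version; strand use in counting and the genome build are not stated there. Of 36 library columns of counts, 24 were used, and 12 that fit no sample label stayed out. Per the file headers, 3 deposited tables, 1 per time, give the authors' log2 fold changes and p-values of coculture over monoculture. Gene symbols and coordinates come from those tables.

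Counts were fitted in R 4.3.3 with edgeR 4.0.16 (TMM factors, 1 mean per group, all 24 libraries, 18 residual degrees of freedom, quasi-likelihood F test, Benjamini-Hochberg over 11937 genes). The filterByExpr rule removed 0 genes. The SE was obtained by dividing the size of the log2 fold change by the root of F. The fitted biological coefficient of variation was 6.86%. On simulated data for the proliferation comparison of 11937 genes, 64.2% of genes changed 1.25-fold, 80.6% of those changed 1.5-fold and 98.5% of those changed 2-fold were recovered, with 11 false calls among 11737 others. Only 67, 67 and 66 genes were changed at these folds, whereas 59.0% of all genes were called in the data. The simulated libraries were also independent draws. These figures check the fit and are not the recovery or error rate of the calls reported here. Replicates of a group differed by more than counting noise (lowest chi-square per degree of freedom 2.16), so none was merged.

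The genes, the related lists and the naming rule were chosen with earlier results of these data known. The rule names the largest rises and falls among called genes. It takes 6 of each in a coculture comparison, 4 in a time step and 3 in a change of the difference. A fixed list adds MRPL12, MRPL11, MRPL3, MRPS12, MRPS7, MRPS22, MRPS34, MRPL58, MRPS18A, MRPS18B and MRPS18C. All of that list are covered in the coculture comparisons in proliferation and at 24 h, and only some of it elsewhere. MRPL46 and MRPS11 are named in addition, for their position. In proliferating coculture MRPL10, MRPL27 and MRPL40 are added for their place in the large subunit. Genes named in a given comparison may also be given in others. Alternatives were library sizes alone, RLE factors, DESeq2 1.42.0, other filters, fits to the compared groups, a replicate block, the L6 or L7 tag of the library names, and leaving out libraries. No sequence is shown.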

Additional observations from a re-analysis of the deposited data

Results flagged for a closer look

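In 4 of 72 groups of 4 libraries tested, 1 library stood apart from the other 3 by a gap larger than 0.829 of the group's range (Dixon's limit), and chance alone gives about 1 in 20. These were MRPS7 in monoculture proliferation (0.906 of the range), where 1 library had 21.4 CPM and the others 19.1 to 19.4 CPM. The share of counts in the 77 genes in coculture proliferation was another (0.864), with 0.191% in replicate 2, the deepest library at 34957625 counts, and 0.179% to 0.18% in the others. At 72 h in coculture MRPL11 had a gap of 0.978, with 18.5 CPM in replicate 4 beside 22.0 to 22.1 CPM, and MRPS12 one of 0.886, with 11.3 CPM in replicate 2 beside 8.11 to 8.47 CPM.

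The coculture difference changed between times by interaction terms of edgeR's quasi-likelihood fit for the genes named in the report. From proliferation to 24 h the changes on the log2 scale were 0.52 for MRPL42, 0.45 for MRPL50, 0.44 for MRPL3, -0.56 for MRPL14, -0.55 for MRPL12 and -0.52 for MRPL38. From 24 h to 72 h they were 0.26 for MRPS10, -0.39 for MRPL27, -0.36 for MRPL55 and -0.34 for MRPL28. From proliferation to 72 h they were 0.43 for MRPS10, 0.41 for MRPL3, 0.41 for MRPL50, -0.81 for MRPL55, -0.76 for MRPL27 and -0.75 for MRPL28. MRPL50 and MRPL55 each overlap a listed gene (ZNF189 and GUK1), and the part of shared reads in these values was not tested.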

How the results depend on the processing

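The count of the 77 genes called in proliferating coculture (50) stayed within 1.5 times under every alternative. At 24 h the 4 calls became 2 with library sizes alone, 2 with only the compared groups in the fit and 1 with the L6 libraries alone. At 72 h the 17 calls became 7 with the tag of the library names as a covariate. From 24 h to 72 h in monoculture the 22 calls became 13 with library sizes alone and 13 when the 4 libraries with most nuclear ribosomal RNA were left out. Over the first 24 h in coculture the 42 calls became 25 with the tag as a covariate and 21 with the L6 libraries alone. For the change of the difference from 24 h to 72 h the 5 calls became 2 with library sizes alone. The cause was not tested.

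Leaving out 1 library gave 44 to 52 calls in coculture over monoculture in proliferation, 1 to 5 at 24 h and 12 to 20 at 72 h. Over the first 24 h it gave 37 to 44 in monoculture and 32 to 43 in coculture, and from 24 h to 72 h 17 to 22 and 10 to 14. For the changes of the difference it gave 27 to 35, 5 to 12 and 36 to 42 (24 h against proliferation, 72 h against 24 h, 72 h against proliferation). With library sizes alone MRPS7 (-0.16, from 0.03 with TMM) and MRPS18A (-0.15) changed sign and were called lower at 24 h over proliferation in monoculture. That setting moved the median of all genes to -0.19 in this comparison and to -0.13 over the first 24 h in coculture, so falls of the 77 genes (56 and 62 called, medians -0.33 in both) are to be read against those shifts. The share of all called genes that were higher went from 50.0% to 29.5% and from 48.5% to 21.7% in these comparisons, from 50.6% to 27.0% from 24 h to 72 h in monoculture, and from 48.1% to 58.8%, 50.6% to 85.4% and 50.3% to 71.3% for the 3 changes of the difference.

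Little sign of pairing by the replicate numbers of the titles was seen between cultures. At the same time, 1 of 12 correlations of deviations between same-numbered libraries of the 2 cultures was over 0.1 (range -0.13 to 0.12). Same-numbered libraries of different times were not compared, so pairing is not excluded. With the replicate block 50, 4 and 16 of the 77 genes were called in the coculture comparisons in order of time. Leaving out 1 library ended 92 calls and made 18 among the values of named genes, and turned no sign of a called value. Counting error limits MRPL33 on chromosome 11 most, at 0.44 to 2.3 CPM.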

Other observations

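Of the 2 genes named MRPL33, the one on chromosome 14 (40508363 to 40508996) had 15.6, 16.3, 18.2 and 15.4 CPM in proliferating monoculture and 12.1, 15.2, 10.4 and 13.5 CPM in coculture. The one on chromosome 11 (71932410 to 71941006) had 1.37, 1.4, 1.95 and 2.3 CPM and 1.5, 1.75, 1.22 and 2.21 CPM. The former was called lower and the latter had a log2 fold change of -0.05 ± 0.28. Both values are uncertain where reads could map to either gene.

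Among the 77 genes, the length of the gene from start to end ran against the log2 fold change of proliferating coculture (Spearman's rho -0.39) and with it at 72 h (0.26). Over all 11937 genes rho was -0.25 and 0.24. These are across genes, which share libraries and are not independent.

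The 2 mitochondrial ribosomal RNA genes took 0.0211% to 0.0257% of counts in proliferating coculture. At 24 h in coculture they took 0.12% in replicate 2, the library with 4.07% nuclear ribosomal RNA, and 0.0242% to 0.0269% in the other 3.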
